A study of Homo sapiens with 21 samples.

Results

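The comparison covers 3 lung adenocarcinoma cell lines made resistant to an inhibitor of the epidermal growth factor receptor (EGFR), each set against its own parental line, and asks which genes change the same way in all 3 and which change in opposite ways. HCC4006ER resists erlotinib and was paired with HCC4006P1, HCC4006GR resists gefitinib and was paired with HCC4006P2, and HCC827GR resists gefitinib and was paired with HCC827P. Members were chosen by the cell line in the labels, which gave 8 of the 21 libraries of the series and 6 of its 17 cell lines. There were 2 libraries of HCC4006P1, 2 of HCC4006ER and 1 of every other line. All are established human lines grown in the same medium with serum. The labels credit the erlotinib pair to a different earlier publication than both gefitinib pairs, and they do not say whether the inhibitor was in the medium when RNA was taken. The resistant lines were derived in culture under the inhibitor, and each stands for 1 derivation. By their names HCC4006P1 and HCC4006P2 are stocks of 1 line, in which case the 3 pairs go back to 2 starting lines.

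The measurement was RNA sequencing, deposited as the number of reads per Ensembl gene. The total count on genes was 18713124 and 19498932 in the HCC4006P1 libraries and 19763806 and 19471160 in those of HCC4006ER. It was 13608332 in HCC4006P2, 15107338 in HCC4006GR, 17336661 in HCC827P and 15548012 in HCC827GR. Levels are given in CPM, the count of a gene divided by that total and scaled to the customary common depth, and 3 counts, the smallest number taken as detected, make between 0.152 and 0.221 CPM of these totals. A change is the difference of log2(CPM + 1) between the resistant and the parental line of a pair, with the replicate libraries of a line summed, and past 2-fold means a change of at least 1 or of -1 or less. The 1 CPM added keeps the change of a gene near 0 counts small. The counts of the replicate libraries of a line were further apart than sampling of reads gives. The ratio of chi-square to degrees of freedom was 31.4 for HCC4006P1 and 5.49 for HCC4006ER. These ratios do not show what kind of replicates they are. Intervals and floors from counts would cover counting error only.

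HCC4006P1 replicate 1 lacks counts on a stretch of the genome. Taken in alphabetical order of the chromosomes, its counts stop within chromosome 7 past 30.6 Mb, and chromosomes 8, 9 and X and the mitochondrial genes follow without them. For genes of this stretch the level of HCC4006P1 comes from replicate 2 alone. The total of replicate 1 was raised to 22920113, so that the missing part makes 18.4% of it, the share that the stretch, with unplaced genes at 0 in replicate 1 alone, has in replicate 2. The stretch holds 2171 of the 14469 genes that passed the filter on low counts, and the genes named from it are ABCB1, COL15A1, COL1A2, DEPTOR, DUSP4, EGFR, ESRP1, FDFT1, FGFR1, GRHL2, INHBA, L1CAM, MAL2, MBNL3, MET, NRG1, SDC2, TFPI2 and TGFBR1.

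The labelled cell type was checked against 9 markers of lung adenocarcinoma epithelium. Their summed level was 6257 and 6621 CPM in the HCC4006P1 libraries and 1545 and 1897 CPM in those of HCC4006ER. It went from 6204 CPM in HCC4006P2 to 2533 CPM in HCC4006GR and from 3250 CPM in HCC827P to 912 CPM in HCC827GR. The sum fell in each pair. In the HCC4006GR pair SLC34A2, which went from 3083 to 293 CPM, made most of the fall, while CDH1 went from 482 to 499 CPM. KRT8 was the most abundant of the 9 in HCC4006P1, HCC4006ER and HCC827GR, SLC34A2 in HCC4006P2, KRT19 in HCC4006GR and CDH1 in HCC827P. The lung lineage markers among them were not shared by the 2 HCC4006 stocks. NKX2-1, a transcription factor that marks the lung lineage, had 0.131 and 0 CPM in HCC4006P1 and 113 CPM in HCC4006P2. SLC34A2, a phosphate transporter of alveolar cells, had 0.0436 and 0 CPM in HCC4006P1 against 3083 CPM in HCC4006P2, and the protease NAPSA had 0.131 and 0.0513 CPM against 143 CPM. In all, 2608 genes (18.0%) differed past 2-fold between HCC4006P1 and HCC4006P2, against 4039 (27.9%) between HCC4006P1 and HCC827P and 4636 (32.0%) between HCC4006P2 and HCC827P. Whether both stocks are 1 line was not tested. EGFR itself had 1036 CPM in HCC4006P1, 962 CPM in HCC4006P2 and 7113 CPM in HCC827P.

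Markers of other cells were looked up as well. Of 9 fibroblast markers, DCN had 0 counts in all 4 parental libraries and in HCC4006GR, and 15.3 and 10.1 CPM in HCC4006ER. The summed fibroblast level was 17.9 and 15.9 CPM in HCC4006P1, mostly COL1A1, and 281.5 and 219.8 CPM in HCC4006ER, where LUM was the most abundant with 131.4 and 97.9 CPM. It went from 26.2 to 65.5 CPM in the HCC4006GR pair, again mostly COL1A1, and from 7.44 to 13.4 CPM in the HCC827GR pair. Of these 9 genes, 4 are also in the list of collagens and matrix used below and 2 in that of receptors, and their part in those results was not tested. Of 9 blood cell markers, HBB and TYROBP had 0 counts in all 8 libraries, and the sum, between 68.7 and 318.7 CPM, was mostly CD68. The 6 endothelial markers summed to between 0.450 and 25.4 CPM, with KDR the most abundant in the highest library, HCC4006P2. Of 11 neuroendocrine markers, NEUROD1 and INSM1 had 0 counts throughout, and the sum rose in both gefitinib pairs, mostly through ENO2. It went from 150.2 to 449.5 CPM with HCC827GR, of which ENO2 made 148.4 and 445.3 CPM, and from 72.6 to 118.6 CPM with HCC4006GR, of which ENO2 made 64.4 and 106.2 CPM. In the HCC4006P1 libraries the sum was 69.0 and 84.2 CPM and in those of HCC4006ER 79.7 and 80.5 CPM, with single markers moving in opposite ways. There NCAM1 went from 0 and 0.0513 CPM to 17.6 and 19.1 CPM and SCG2 from 0.393 and 0.667 CPM to 35.7 and 31.4 CPM, while ENO2 went from 48.3 and 54.6 CPM to 19.9 and 22.1 CPM. In these bulk cultures, fewer cells of a type and less RNA per cell cannot be told apart.

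As background, mutant EGFR drives growth of these tumour cells through the RAS and ERK and the PI3K pathways, and erlotinib and gefitinib block its kinase. Resistance can come from a further EGFR mutation, from another receptor that drives the same pathways, or with a shift from an epithelial to a mesenchymal state, in which ZEB and SNAI family repressors shut down epithelial genes and cells make matrix. Cells that divide less under a drug also make less RNA of replication and mitosis genes.

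The pairs changed to different extents. In HCC4006ER 1624 genes were past 2-fold higher and 1396 lower (20.9% of the genes tested), in HCC4006GR 1039 and 980 (14.0%), and in HCC827GR 1267 and 1015 (15.8%). The median change of all genes was 0.09 in HCC4006ER, -0.07 in HCC4006GR and 0.03 in HCC827GR, and with TMM scaling it was 0.00, -0.06 and 0.01. Between pairs, 618 genes were past 2-fold the same way in HCC4006ER and HCC4006GR and 279 in opposite ways. For HCC4006ER and HCC827GR these counts were 707 and 163, and for HCC4006GR and HCC827GR they were 589 and 180. Each pair has its own control libraries, so no library enters 2 pairs. The pairs that start from HCC4006 thus had the most genes moving in opposite ways.

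In all 3 pairs at once, 120 genes were past 2-fold higher (0.829% of 14469) and 105 past 2-fold lower (0.726%). The sizes of the changes just inside the threshold were 1.02 for the genes higher and 1.00 for those lower. Of the genes higher 118 code for a protein, and of those lower 104 do. The mean level over the 6 lines had a median of 21.5 CPM among the genes higher and 35.9 CPM among those lower, against 24.9 CPM over all genes tested. Of the 225 genes, 28 lie on the stretch without counts in HCC4006P1 replicate 1. At any size, 2653 genes (18.3%) were above 0 in all 3 pairs and 2500 (17.3%) below.

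A test across the pairs took each line as 1 summed profile and the pair as a block, which leaves 2 residual degrees of freedom. In this edgeR quasi-likelihood fit, with p-values adjusted over all genes after Benjamini and Hochberg, 0 genes were higher (0.0%) and 0 lower (0.0%), and the lowest adjusted p was 0.311. At an unadjusted p under 0.05 there were 1522 genes, and DESeq2 called 314 higher and 377 lower. Of the 120 genes higher 118 had an unadjusted p under 0.05, and of the 105 lower 96 did, though all were chosen for changes of 1 sign. The counts of genes past 2-fold are therefore a description of these 3 pairs.

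A fit over the 8 single libraries tested each pair on its own, against the spread between the replicate libraries of HCC4006P1 and HCC4006ER, with the lone libraries of the other 4 lines assumed to vary like them. Here 267 genes were called higher in all 3 pairs (1.85%) and 307 lower in all 3 (2.12%), and 118 of the 120 genes and 83 of the 105 were among them, an overlap that follows from choosing genes past 2-fold in the same libraries. These p-values measure only the spread between libraries, not between separately derived lines. They rest on few libraries. On the stretch the spread comes from the HCC4006ER libraries alone, and with its genes left out 169 were called higher and 199 lower. Away from the stretch, those libraries stood closer together than the HCC4006P1 ones (ratios of 5.49 and 31.4 above). Calls on the stretch, such as those of ESRP1, FDFT1, FGFR1, GRHL2, INHBA, MAL2, MBNL3 and TGFBR1 below, are thus not measured like the rest. For them the share called over all genes is no like measure. Without HCC4006ER replicate 1 the stretch could not be fitted, and the counts over the other genes were 115 and 107, and without replicate 2 they were 115 and 135. Without HCC4006P1 replicate 1 the counts with the stretch in were 589 and 833. Without its replicate 2, which alone gives the level on the stretch, the counts over the other genes were 484 and 688. Below, a gene called in all 3 pairs is one that passed this fit.

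The same fit tested whether the changes of the 3 pairs differ, and called 5705 of 14469 genes (39.4%). With the stretch left out the count was 3998, and over the same kind of genes it was 2669 without HCC4006ER replicate 1 and 2725 without its replicate 2. With the stretch in, it was 9968 without HCC4006P1 replicate 1. Without its replicate 2 the stretch has no level for HCC4006P1, and the count over the other genes was 8515. Of the genes on the stretch, 1447 of 2171 (66.7%) were called. The changes differed for 60 of the 120 genes higher and for 49 of the 105 lower. For the rest a difference in size was not called.

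Transcription factors of the mesenchymal state come first. ZEB2, a repressor of epithelial genes (chromosome 2, 145121931 to 145278624, GRCh37), had 1.53 and 0.872 CPM in the HCC4006P1 libraries, 78.7 and 67.3 CPM in those of HCC4006ER, 0.147 CPM in HCC4006P2, 15.6 CPM in HCC4006GR, 1.73 CPM in HCC827P and 50.5 CPM in HCC827GR. Every resistant library lay above every parental one. Its changes were 5.06 in HCC4006ER, 3.86 in HCC4006GR and 4.24 in HCC827GR, with a mean of 4.38 ± 0.61 (SD, n = 3), and it had the highest smallest change of the 120 genes. In the 3-pair edgeR test it had an unadjusted p of 9.8e-05 and an adjusted p of 0.311, and a difference between the pairs was not called (adjusted p = 0.147). ZEB1, its relative, went from 7.28 to 19.6 CPM with HCC4006ER, from 0.588 to 13.8 CPM with HCC4006GR and from 6.23 to 44.1 CPM with HCC827GR. SNAI1 was in opposite ways past 2-fold, with 1.31 in HCC4006GR and -1.09 in HCC827GR, and TWIST1 was at 0 and 0.0643 CPM in the HCC827 pair while it changed by 2.16 and 2.62 in the other pairs. Of the 7 factors of this list that were tested, 2 were past 2-fold higher in all 3 pairs (against 0.829% of all genes). Above 0 in all 3 were 5 (against 18.3%) and 0 were below, with medians of 1.32 in HCC4006ER, 1.31 in HCC4006GR and 0.41 in HCC827GR. TWIST1, 1 of the 5, had under 3 counts on both sides of the HCC827 pair. Only ZEB1 and ZEB2 were called higher in all 3 pairs (against 1.85% of all genes). The filter on low counts drops genes with a level in too few of the 6 lines. The number tested of this and later lists therefore leaves out members raised in 1 line alone. FOXC2 was not tested, with 0.174 and 0.205 CPM in the HCC4006P1 libraries and 7.24 and 8.73 CPM in those of HCC4006ER.

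The activators on the other side fell unevenly. Of 14 epithelial transcription and splicing regulators, 8 were below 0 in all 3 pairs (against 17.3% of all genes), 9 with TMM scaling, and 0 above, and the medians were -3.03 in HCC4006ER, -0.47 in HCC4006GR and -1.68 in HCC827GR. OVOL2, a repressor of ZEB genes, was past 2-fold lower in all 3 (1 of 14, against 0.726% of all genes). It went from 5.42 to 0 CPM with HCC4006ER, from 8.67 to 3.38 CPM with HCC4006GR and from 6.11 to 1.03 CPM with HCC827GR, and was not called in all 3. GRHL2, an activator of junction genes, and ESRP1, a splicing factor of epithelial cells, were called lower in all 3 pairs (2 of 14, against 2.12% of all genes), with GRHL2 changes of -6.07, -0.94 and -4.00 in HCC4006ER, HCC4006GR and HCC827GR and ESRP1 changes of -6.74, -0.71 and -4.44. Both changed by under 2-fold in HCC4006GR. Both lie on the stretch, where the spread comes from the HCC4006ER libraries alone, so the share of all genes is no like measure for these 2 calls. TP63, a factor of basal epithelium, moved in opposite ways, with -1.44 in HCC4006ER, 1.26 in HCC4006GR and -1.70 in HCC827GR.

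**Figure D1:**
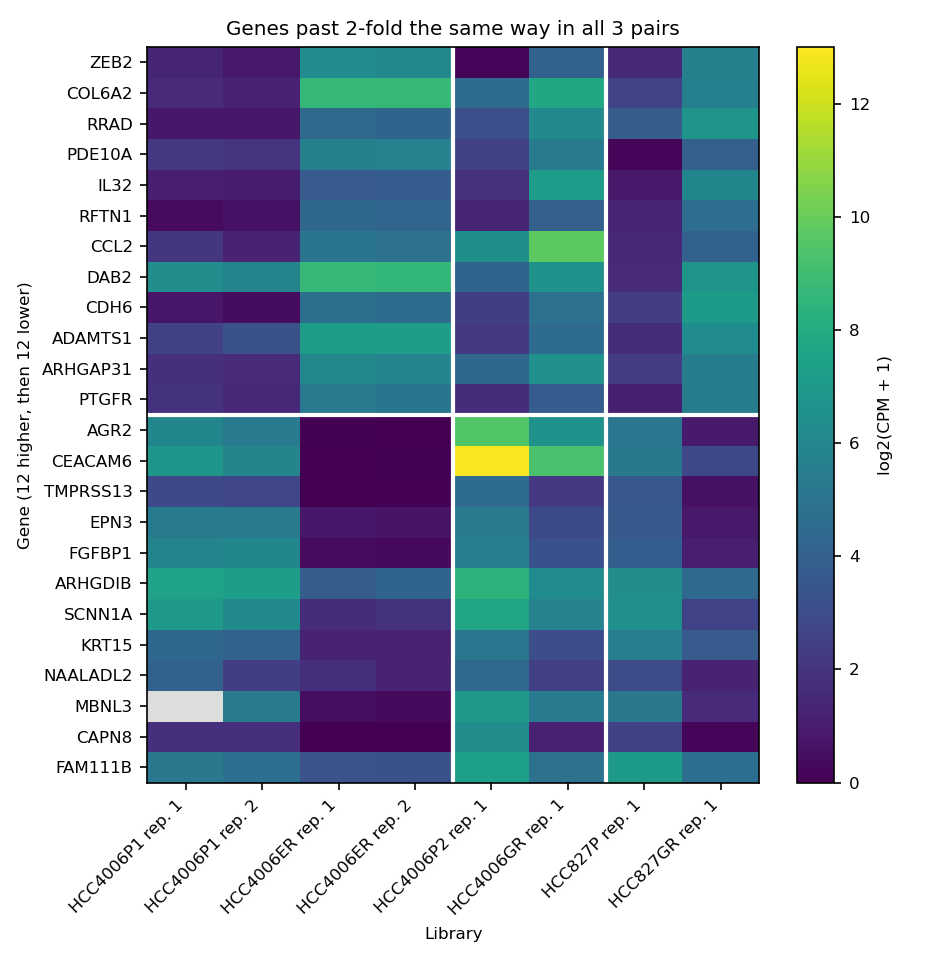
Level of 24 genes in each of the 8 libraries as log2(CPM + 1), from 0 (dark) to 13 (bright). The upper 12 genes were past 2-fold higher and the lower 12 past 2-fold lower in all 3 resistant lines, white lines divide the 3 pairs, and the gray field is MBNL3 in HCC4006P1 replicate 1, which lacks counts there.

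Several genes of the matrix were higher in all 3 pairs. COL6A2, a chain of type VI collagen (chromosome 21, 47518026 to 47552762), had 1.92 and 1.49 CPM in the HCC4006P1 libraries, 406 and 403 CPM in those of HCC4006ER, 22.6 CPM in HCC4006P2, 223 CPM in HCC4006GR, 5.31 CPM in HCC827P and 48.3 CPM in HCC827GR. Parental HCC4006P2 already had more than either HCC4006P1 library, and within each pair the resistant line was higher. The changes were 7.22 in HCC4006ER, 3.25 in HCC4006GR and 2.97 in HCC827GR, and they differed between pairs (edgeR quasi-likelihood, adjusted p = 2.9e-05). COL6A1, the neighbouring gene that codes for the partner chain, changed by 6.62 in HCC4006ER, 1.68 in HCC4006GR and 3.05 in HCC827GR. COL12A1, a collagen that links fibrils, went from 14.7 to 1452 CPM with HCC4006ER, from 16.3 to 67.1 CPM with HCC4006GR and from 1.10 to 26.9 CPM with HCC827GR, FN1, which codes for fibronectin, went from 135 to 1415 CPM with HCC4006ER, from 77.1 to 169 CPM with HCC4006GR and from 216 to 506 CPM with HCC827GR, and COL4A1, of the basement membrane, changed by 1.16, 1.44 and 2.63. These 5 of 19 tested genes of the collagens and matrix list were past 2-fold higher in all 3 pairs (against 0.829% of all genes). The same 5 were called higher in all 3 (against 1.85%). Above 0 in all 3 were 9 (against 18.3%) and 0 were below. COL1A2, 1 of the 9, had under 3 counts on both sides of the HCC827 pair. The medians of the list were 1.16 in HCC4006ER, 1.23 in HCC4006GR and 0.68 in HCC827GR. Not tested, for a level in too few lines, were LUM and DCN, given above, and COL3A1. COL3A1 had 0.0873 and 0 CPM in the HCC4006P1 libraries and 51.6 and 35.4 CPM in those of HCC4006ER. Other members did not follow. COL1A2 changed by 10.18 in HCC4006ER and by 0.01 in HCC827GR, and SPARC by 12.39 and -0.61. COL1A1 moved in opposite ways, with 1.27, 1.12 and -1.58 in the order of the pairs above. Of the genes that the study's table labels mesenchymal, 9 of 31 tested were past 2-fold higher in all 3 pairs (against 0.829% of all genes) and 0 lower. Among those not tested was VCAM1, which went from 0 to 418 CPM with HCC827GR and stayed at or below 0.331 CPM in the HCC4006 lines.

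CDH6, a cadherin of embryonic kidney and brain (chromosome 5, 31193793 to 31329253), had 0.742 and 0.359 CPM in the HCC4006P1 libraries, 26.6 and 23.3 CPM in those of HCC4006ER, 4.34 CPM in HCC4006P2, 28.5 CPM in HCC4006GR, 4.15 CPM in HCC827P and 132 CPM in HCC827GR. Its changes were 4.05 in HCC4006ER, 2.47 in HCC4006GR and 4.69 in HCC827GR, and no parental library reached the lowest resistant one. ADAMTS1, a secreted protease of the matrix, had 4.76 and 8.31 CPM in the HCC4006P1 libraries, 149 and 157 CPM in those of HCC4006ER, 3.60 CPM in HCC4006P2, 22.2 CPM in HCC4006GR, 2.31 CPM in HCC827P and 78.1 CPM in HCC827GR, with changes of 4.39, 2.33 and 4.58 that were not called different between pairs (edgeR quasi-likelihood, adjusted p = 0.0513). Its relative ADAMTS9, among the 5 genes with the lowest p of those higher in the 3-pair test (edgeR quasi-likelihood, unadjusted p = 1.4e-04, 3 of 3 pairs higher), went from 0.0943 to 2.93 CPM with HCC4006ER, from 5.44 to 162 CPM with HCC4006GR and from 23.4 to 284 CPM with HCC827GR. HCC827P had more ADAMTS9 than HCC4006ER, so the resistant lines as a group overlap the parental ones. Of 12 contractile and caveolar genes, 5 were above 0 in all 3 pairs (against 18.3% of all genes) and 0 below, 0 were past 2-fold the same way in all 3, and the medians were 0.89 in HCC4006ER, 0.46 in HCC4006GR and 0.49 in HCC827GR.

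Secreted signals followed. CCL2, a chemokine that draws monocytes (chromosome 17, 32582293 to 32584227), had 3.23 and 1.38 CPM in the HCC4006P1 libraries, 31.7 and 28.5 CPM in those of HCC4006ER, 89.0 CPM in HCC4006P2, 858 CPM in HCC4006GR, 1.73 CPM in HCC827P and 15.2 CPM in HCC827GR. The parental HCC4006P2 lay above 2 of the 3 resistant lines, and each resistant line lay above its own parent. The changes of CCL2 were 3.20 in HCC4006ER, 3.26 in HCC4006GR and 2.57 in HCC827GR, with a mean of 3.01 ± 0.38 (SD, n = 3), and the 3-pair edgeR test gave it the lowest unadjusted p, 3.9e-05, with an adjusted p of 0.311. Its changes were not called different between pairs (adjusted p = 0.735). IL32, a cytokine made by epithelial and immune cells (chromosome 16, 3115298 to 3132193), had 1.13 and 0.974 CPM in the HCC4006P1 libraries, 12.3 and 12.5 CPM in those of HCC4006ER, 2.57 CPM in HCC4006P2, 141 CPM in HCC4006GR, 0.865 CPM in HCC827P and 61.4 CPM in HCC827GR. The changes, 2.71 in HCC4006ER, 5.31 in HCC4006GR and 5.06 in HCC827GR, were larger in both gefitinib pairs than in the erlotinib pair, and they differed between pairs (edgeR quasi-likelihood, adjusted p = 0.00185). CSF1, a growth factor of macrophages, went from 11.8 to 53.1 CPM with HCC4006ER, from 18.7 to 175 CPM with HCC4006GR and from 23.4 to 68.2 CPM with HCC827GR. Of 14 tested cytokines and chemokines, CCL2 and CSF1 were past 2-fold higher in all 3 pairs (against 0.829% of all genes), CXCL5 and CSF2 were called higher in all 3 as well (4 of 14, against 1.85%), and 0 were lower. In the HCC4006ER pair both of the latter were low. CXCL5 went from 0.0873 and 0.154 CPM, at most 3 counts, to 0.506 and 0.668 CPM, and CSF2 from 0.436 and 0.615 CPM to 1.57 and 1.28 CPM. The medians of the list were 0.03 in HCC4006ER, 4.61 in HCC4006GR and 1.18 in HCC827GR. CXCL8 went from 8.16 to 0.280 CPM with HCC4006ER, from 15.7 to 1144 CPM with HCC4006GR and from 452 to 1455 CPM with HCC827GR, and IL6 went from 3.37 to 4.92 CPM with HCC4006ER, from 1.03 to 77.9 CPM with HCC4006GR and from 8.42 to 90.6 CPM with HCC827GR. INHBA, a subunit of the TGF-beta family ligand activin, was past 2-fold higher in all 3 pairs, from 0.821 to 9.43 CPM with HCC4006ER, from 1.18 to 151 CPM with HCC4006GR and from 3.86 to 17.2 CPM with HCC827GR. It was 1 of 17 tested TGF-beta pathway genes to do so (against 0.829% of all genes), and TGFB1 and TGFBR1 were called higher in all 3 as well (3 of 17, against 1.85%), by less than 2-fold in some.

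The promoter of IL32 is shown since the gene codes for a cytokine that was higher in all 3 pairs and holds 2 matches to a kappaB type motif, the kind that NF-kappaB proteins bind. It runs from 250 bases before to 50 after the start of the gene (RefSeq, GRCh38.p14, chr16:3065153-3065452, plus strand), with the matches to GGANTTTCC on either strand in capitals. This motif occurs in 1.64% of the 27305 promoters of the table, in 2 of 77 promoters of genes higher in all 3 pairs (2.60%) and in 2 of 67 of those lower (2.99%), and a match is a description of letters only.
IL32: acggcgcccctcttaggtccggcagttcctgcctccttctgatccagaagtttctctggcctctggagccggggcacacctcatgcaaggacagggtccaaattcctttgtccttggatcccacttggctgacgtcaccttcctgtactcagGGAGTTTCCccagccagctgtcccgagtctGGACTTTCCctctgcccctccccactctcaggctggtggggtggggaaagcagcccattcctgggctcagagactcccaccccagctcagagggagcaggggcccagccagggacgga

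Receptors and signalling proteins made up most of the remaining named genes. PDGFRA, a platelet-derived growth factor receptor and a fibroblast marker, had 0.0436 and 0.103 CPM in the HCC4006P1 libraries, 3.49 and 3.18 CPM in those of HCC4006ER, 0.0735 CPM in HCC4006P2, 5.16 CPM in HCC4006GR, 0 CPM in HCC827P and 1.67 CPM in HCC827GR. All values are low, and the 4 parental libraries lay at or below 0.103 CPM, under 3 counts. Its changes were 2.02 in HCC4006ER, 2.52 in HCC4006GR and 1.42 in HCC827GR. It was the only 1 of 21 tested bypass receptors and ligands past 2-fold higher in all 3 pairs (against 0.829% of all genes). It and FGFR1 were called higher in all 3 (against 1.85%) and MERTK lower (against 2.12%), and 5 were above 0 in all 3 (against 18.3%) and 3 below (against 17.3%). FGFR1, a fibroblast growth factor receptor, went from 8.56 to 89.6 CPM with HCC4006ER, from 17.6 to 33.2 CPM with HCC4006GR and from 6.63 to 370.3 CPM with HCC827GR. AXL, a receptor often higher in resistant lung cancer, changed by 1.22, 1.41 and 0.72 in the order above, from 2.31 to 4.44 CPM in the HCC827GR pair, and MET by -2.03, -0.32 and -0.50. The medians of the list were 0.31 in HCC4006ER, 0.49 in HCC4006GR and 0.30 in HCC827GR.

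PTGFR, the receptor of prostaglandin F, went from 2.31 to 35.5 CPM with HCC4006ER, from 2.20 to 12.8 CPM with HCC4006GR and from 1.21 to 44.4 CPM with HCC827GR. DAB2, an adaptor of endocytosis, had 80.5 and 55.2 CPM in the HCC4006P1 libraries, 415 and 389 CPM in those of HCC4006ER, 17.0 CPM in HCC4006P2, 101 CPM in HCC4006GR, 2.02 CPM in HCC827P and 105 CPM in HCC827GR. No parental library reached the lowest resistant one, and the changes were 2.53 in HCC4006ER, 2.50 in HCC4006GR and 5.13 in HCC827GR. RRAD, a small GTP-binding protein that dampens calcium channels, went from 0.778 to 19.4 CPM with HCC4006ER, from 8.08 to 70.4 CPM with HCC4006GR and from 13.3 to 106 CPM with HCC827GR, with changes of 3.52, 2.98 and 2.91. PDE10A, which breaks down cyclic nucleotides, went from 3.21 to 51.5 CPM with HCC4006ER, from 4.92 to 40.9 CPM with HCC4006GR and from 0.115 to 15.0 CPM with HCC827GR. RFTN1, a protein of membrane rafts, changed by 3.82, 2.66 and 3.39 in the same order, and ARHGAP31, which turns off the GTPases CDC42 and RAC, went from 2.19 to 59.7 CPM with HCC4006ER, from 19.2 to 93.5 CPM with HCC4006GR and from 4.04 to 44.4 CPM with HCC827GR. Each of these 6 genes was called higher in all 3 pairs.

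The target of the drugs and its pathway did not move as 1 group. Of 14 tested EGFR family receptors and ligands, 0 were past 2-fold the same way in all 3 pairs, 2 were above 0 in all 3 (against 18.3% of all genes) and 4 below (against 17.3%), and the medians were -1.17 in HCC4006ER, 0.05 in HCC4006GR and 0.06 in HCC827GR. EGFR changed by -2.38 in HCC4006ER, 0.31 in HCC4006GR and -0.01 in HCC827GR. ERBB3, the partner receptor that feeds PI3K, was below 0 in all 3 with -5.81, -0.99 and -1.59, and the ligand NRG1 was above 0 in all 3 with 1.90, 2.51 and 0.25. Of 19 genes of ERK output and feedback, 1 was past 2-fold higher in all 3 (against 0.829% of all genes) and 0 lower (against 0.726%). This was EPHA4, a receptor of ephrins, higher by 2.68, 1.26 and 1.60. Of the 19, 5 moved in opposite ways (against 3.41%). DUSP6, a phosphatase induced by ERK activity, was below 0 in all 3, from 36.3 to 12.2 CPM with HCC4006ER, from 468 to 179 CPM with HCC4006GR and from 56.3 to 31.1 CPM with HCC827GR. DUSP4 changed by -3.60 in HCC4006ER and by 2.09 in HCC827GR, and SPRY4 by -3.18 and 2.26. The ERK list had medians of -1.50 in HCC4006ER, 0.12 in HCC4006GR and 0.50 in HCC827GR, with 3 of its members below 0 in all 3 pairs (against 17.3% of all genes) and 1 above. Of 13 genes of the BCL2 family, BBC3 was called higher in all 3 pairs (against 1.85% of all genes) and 0 were past 2-fold in all 3.

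Among the genes lower in all 3 pairs were several of epithelial cells. AGR2, a secreted folding enzyme of mucous epithelium (chromosome 7, 16831435 to 16873057), had 62.0 and 40.1 CPM in the HCC4006P1 libraries, 0.0506 and 0 CPM in those of HCC4006ER, 701 CPM in HCC4006P2, 98.2 CPM in HCC4006GR, 33.5 CPM in HCC827P and 0.900 CPM in HCC827GR. Its level in HCC4006GR exceeded that of HCC827P and of both HCC4006P1 libraries, and within each pair the resistant line was lower. The changes were -5.69 in HCC4006ER, -2.82 in HCC4006GR and -4.18 in HCC827GR and differed between pairs (edgeR quasi-likelihood, adjusted p = 8.7e-04). CEACAM6, an adhesion protein of lung and gut epithelium (chromosome 19, 42254885 to 42276116), had 115 and 58.6 CPM in the HCC4006P1 libraries, 0 and 0.0514 CPM in those of HCC4006ER, 7405 CPM in HCC4006P2, 614 CPM in HCC4006GR, 37.0 CPM in HCC827P and 6.11 CPM in HCC827GR. It changed by -6.46 in HCC4006ER, -3.59 in HCC4006GR and -2.42 in HCC827GR, and its replicate libraries of HCC4006P1 stood far apart. SCNN1A, the alpha subunit of the epithelial sodium channel, had 126 and 69.8 CPM in the HCC4006P1 libraries, 2.18 and 2.72 CPM in those of HCC4006ER, 206 CPM in HCC4006P2, 53.3 CPM in HCC4006GR, 92.3 CPM in HCC827P and 5.15 CPM in HCC827GR, with changes of -4.88, -1.93 and -3.92. TMPRSS13, a membrane protease, went from 6.06 to 0 CPM with HCC4006ER, from 22.6 to 3.44 CPM with HCC4006GR and from 10.4 to 0.515 CPM with HCC827GR, and CAPN8, a calpain of mucous cells, went from 2.36 to 0 CPM with HCC4006ER, from 81.3 to 1.32 CPM with HCC4006GR and from 4.90 to 0.129 CPM with HCC827GR. Neither had a count in the HCC4006ER libraries, where 3 counts make 0.152 and 0.154 CPM.

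FGFBP1, which carries fibroblast growth factors out of the matrix, went from 59.3 to 0.280 CPM with HCC4006ER, from 46.7 to 8.74 CPM with HCC4006GR and from 13.6 to 1.16 CPM with HCC827GR, and EPN3, an endocytic protein of epithelia, went from 38.8 to 0.714 CPM with HCC4006ER, from 39.4 to 6.69 CPM with HCC4006GR and from 11.5 to 0.836 CPM with HCC827GR. KRT15, a basal keratin, went from 17.8 to 1.35 CPM with HCC4006ER, from 33.1 to 7.55 CPM with HCC4006GR and from 47.0 to 12.3 CPM with HCC827GR. ARHGDIB, which holds small GTP-binding proteins inactive, had 181 and 149 CPM in the HCC4006P1 libraries, 13.1 and 17.1 CPM in those of HCC4006ER, 337 CPM in HCC4006P2, 80.0 CPM in HCC4006GR, 82.5 CPM in HCC827P and 20.5 CPM in HCC827GR, and ERP27, the gene next to it on chromosome 12, was lower as well, with changes of -1.58, -2.72 and -2.11. MBNL3, a regulator of splicing on chromosome X, had 39.2 CPM in HCC4006P1 replicate 2, 0.405 and 0.257 CPM in those of HCC4006ER, 131 CPM in HCC4006P2, 37.9 CPM in HCC4006GR, 34.7 CPM in HCC827P and 1.93 CPM in HCC827GR. Its parental value in the HCC4006ER pair therefore rests on 1 library. NAALADL2, of unclear function, had 15.5 and 4.41 CPM in the HCC4006P1 libraries, 2.53 and 1.34 CPM in those of HCC4006ER, 20.6 CPM in HCC4006P2, 4.57 CPM in HCC4006GR, 6.98 CPM in HCC827P and 1.35 CPM in HCC827GR. Its changes were -1.96, -1.96 and -1.76. Of the 12 lower genes named by the rule on the smallest change, which include FAM111B given below, only NAALADL2 was not called in all 3 pairs. It was called in HCC4006ER alone.

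The promoters of AGR2 and CAPN8 are shown since both genes were lower in all 3 pairs and both hold the letters CAGGTG, the E-box that ZEB and SNAI proteins bind. A match is a description of letters only, and binding was not tested. Each runs from 250 bases before to 50 after the start (RefSeq, GRCh38.p14, minus strand, chr7:16804950-16805249 for AGR2 and chr1:223665652-223665951 for CAPN8), with matches on either strand in capitals. The motif occurs in 20.6% of all 27305 promoters, in 17 of 67 promoters of genes lower in all 3 pairs (25.4%), in 9 of 77 of those higher (11.7%) and in 18.7% of the 11083 tested genes with a promoter in the table.
AGR2: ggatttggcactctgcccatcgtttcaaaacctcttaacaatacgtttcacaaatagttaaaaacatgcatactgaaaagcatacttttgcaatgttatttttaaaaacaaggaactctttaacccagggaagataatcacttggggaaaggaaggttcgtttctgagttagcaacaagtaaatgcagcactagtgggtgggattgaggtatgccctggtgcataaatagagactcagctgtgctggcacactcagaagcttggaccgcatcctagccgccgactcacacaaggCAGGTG
CAPN8: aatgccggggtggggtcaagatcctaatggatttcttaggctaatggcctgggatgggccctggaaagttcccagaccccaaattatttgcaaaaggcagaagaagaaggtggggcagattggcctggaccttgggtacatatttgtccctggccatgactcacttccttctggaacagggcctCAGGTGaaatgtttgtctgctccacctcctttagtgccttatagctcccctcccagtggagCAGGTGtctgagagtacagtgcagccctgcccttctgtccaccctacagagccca

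Lists of epithelial structure show that the loss was not shared evenly. Of 18 genes of tight and adherens junctions, 0 were past 2-fold lower in all 3 pairs, 8 were below 0 in all 3 (against 17.3% of all genes), and the medians were -2.89 in HCC4006ER, 0.02 in HCC4006GR and -0.74 in HCC827GR. CLDN1, a claudin, moved in opposite ways, with -4.91, 0.90 and 2.68 in the order of the pairs above. Of 17 genes of desmosomes and keratins, KRT15 was past 2-fold lower in all 3 (against 0.726% of all genes). EVPL and PPL were called lower in all 3 as well (3 of 17, against 2.12% of all genes), and the medians were -1.69 in HCC4006ER, 0.38 in HCC4006GR and -1.19 in HCC827GR. Of 14 epithelial membrane proteases and trafficking genes, MAL2, of apical transport, was past 2-fold lower in all 3 (against 0.726% of all genes). MAL2 went from 289 to 3.06 CPM with HCC4006ER, from 394 to 175 CPM with HCC4006GR and from 232 to 27.2 CPM with HCC827GR. Of the 14, 10 were below 0 in all 3 (again against 17.3%). The medians there were -4.33 in HCC4006ER, -0.26 in HCC4006GR and -3.07 in HCC827GR. The median change of each of these 3 lists was largest in HCC4006ER and under 0.5 in size in HCC4006GR. Of the 13 genes labelled epithelial in the study's gene table, whose labels are split otherwise than the numbers in its main text, 6 were below 0 in all 3 pairs (against 17.3% of all genes) and 0 past 2-fold lower in all 3, with medians of -3.08 in HCC4006ER, -0.31 in HCC4006GR and -1.19 in HCC827GR.

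Markers of the lung lineage did not all change alike. Of 10 tested, CEACAM6 and FOXA1 were past 2-fold lower in all 3 pairs (against 0.726% of all genes) and MUC1 was called lower in all 3. Below 0 in all 3 were 6 (against 17.3%), of which NKX2-1 and SFTA3 had at most 3 counts in each library of the HCC4006ER pair, 0 were above, and the medians were -0.70 in HCC4006ER, -2.20 in HCC4006GR and -1.60 in HCC827GR. FOXA1, a factor that opens chromatin in lung epithelium, went from 36.9 to 4.92 CPM with HCC4006ER, from 159 to 43.0 CPM with HCC4006GR and from 55.6 to 23.5 CPM with HCC827GR. NKX2-1 changed by -2.54 in HCC4006GR and -1.80 in HCC827GR, and SLC34A2 by -3.39 and -2.93, while both were near 0 CPM on either side of the HCC4006ER pair. NAPSA went from 143 to 1.52 CPM in the HCC4006GR pair and from 35.4 to 12.3 CPM in the HCC827GR pair. Others were higher in HCC827GR: SCGB3A2, a secretory protein of airway cells, changed by -0.92, 0.41 and 0.74 in HCC4006ER, HCC4006GR and HCC827GR, from 104 to 174 CPM in the last, and FOXA2, a relative of FOXA1, by -2.84, -0.61 and 0.79. The fall of NKX2-1, SLC34A2 and NAPSA was thus seen in both gefitinib pairs and could not be seen in the erlotinib pair.

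Genes of DNA replication and mitosis were the list with the highest share of members below 0. Of 22 tested, 20 were below 0 in all 3 pairs, against 17.3% of all genes, also with TMM scaling, and 0 were above. In all, 10 were called lower in all 3 pairs (against 2.12%) and 4 were past 2-fold lower in all 3 (against 0.726%), or 5 with TMM scaling. The medians were -0.64 in HCC4006ER, -1.79 in HCC4006GR and -1.08 in HCC827GR. CDC6, which loads the replicative helicase (chromosome 17, 38444131 to 38460909), had 57.4 and 95.5 CPM in the HCC4006P1 libraries, 16.3 and 24.3 CPM in those of HCC4006ER, 79.7 CPM in HCC4006P2, 22.3 CPM in HCC4006GR, 118 CPM in HCC827P and 35.3 CPM in HCC827GR. The highest resistant library lay below the lowest parental one. Its changes were -1.84 in HCC4006ER, -1.79 in HCC4006GR and -1.72 in HCC827GR, with a mean of -1.78 ± 0.06 (SD, n = 3), and the pairs were not called different (edgeR quasi-likelihood, adjusted p = 0.893). In the 3-pair edgeR test it had an unadjusted p of 2.9e-04 and an adjusted p of 0.311.

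PCNA, the sliding clamp of the polymerases, went from 211 to 99.4 CPM with HCC4006ER, from 316 to 107 CPM with HCC4006GR and from 297 to 116 CPM with HCC827GR, RRM2, a subunit of the enzyme that makes deoxynucleotides, went from 205 to 93.8 CPM with HCC4006ER, from 193 to 47.0 CPM with HCC4006GR and from 495 to 117 CPM with HCC827GR, and CCNB2, a mitotic cyclin, changed by -1.27 in HCC4006ER, -2.24 in HCC4006GR and -1.07 in HCC827GR. FAM111B, a protease whose RNA peaks in S phase (chromosome 11, 58874658 to 58894885), had 35.3 and 26.3 CPM in the HCC4006P1 libraries, 8.91 and 8.42 CPM in those of HCC4006ER, 161 CPM in HCC4006P2, 27.5 CPM in HCC4006GR, 137 CPM in HCC827P and 26.0 CPM in HCC827GR. It changed by -1.73 in HCC4006ER, -2.50 in HCC4006GR and -2.35 in HCC827GR, with no difference called between pairs (edgeR quasi-likelihood, adjusted p = 0.209). MKI67 and TOP2A, markers of dividing cells, changed by -0.11 and -0.20 in HCC4006ER, by -2.51 and -2.54 in HCC4006GR and by -1.40 and -2.68 in HCC827GR. The members that were not below 0 in all 3 were AURKA, with 0.21 in HCC4006ER, and TYMS, with 0.41 in HCC827GR. The sign of some others rests on summed libraries. In the HCC4006ER pair MKI67 went from 861 to 724 CPM between replicates 1 and from 802 to 817 CPM between replicates 2. TOP2A, CDK1 and BUB1 were likewise lower between replicates 1 and slightly higher between replicates 2. Of the 105 genes lower in all 3 pairs, further replication genes, named after their values were seen, were ORC1, with changes of -1.42, -1.81 and -1.21, MCM10, with -1.64, -2.33 and -1.42, and POLE2, with -1.42, -2.18 and -1.94. Growth rate or density of the cultures at harvest is not given, and its part in this result was not tested.

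The promoters of CDC6 and PCNA are shown since both genes were past 2-fold lower in all 3 pairs and both hold an E2F type motif. Motifs of this kind are bound by the factors that switch on S phase genes, and binding was not tested here. Matches to TTTNNCGC on either strand are in capitals (RefSeq, GRCh38.p14, chr17:40287629-40287928 on the plus strand for CDC6 and chr20:5126573-5126872 on the minus strand for PCNA). This motif occurs in 6.90% of all 27305 promoters, in 10.2% of those of genes tested, in 11 of 67 promoters of genes lower in all 3 pairs (16.4%), in 6 of 77 of those higher (7.79%) and in 9 of 19 promoters of the replication and mitosis list (47.4%).
CDC6: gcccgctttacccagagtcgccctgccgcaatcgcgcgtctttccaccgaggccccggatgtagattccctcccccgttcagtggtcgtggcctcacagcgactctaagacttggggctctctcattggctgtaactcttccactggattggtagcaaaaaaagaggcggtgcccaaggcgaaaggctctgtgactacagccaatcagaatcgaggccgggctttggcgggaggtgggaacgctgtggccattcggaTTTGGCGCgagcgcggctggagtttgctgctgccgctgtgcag
PCNA: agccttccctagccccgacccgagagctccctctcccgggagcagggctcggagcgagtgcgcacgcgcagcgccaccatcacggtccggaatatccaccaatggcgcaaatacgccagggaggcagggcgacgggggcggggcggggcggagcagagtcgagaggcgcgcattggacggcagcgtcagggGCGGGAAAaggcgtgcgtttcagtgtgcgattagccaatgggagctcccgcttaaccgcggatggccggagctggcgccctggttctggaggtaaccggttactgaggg

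The rule on the lowest p-values of the 3-pair test named 4 further genes, some of them near 0 on both sides of a pair. Among those lower, KRT16P3 and KRT16P2, keratin pseudogenes whose near-identical copies make the assignment of reads uncertain, went from 0.542 to 0.0255 CPM with HCC4006ER, from 35.5 to 0.794 CPM with HCC4006GR and from 71.8 to 1.93 CPM with HCC827GR for the first and from 0.212 to 0 CPM with HCC4006ER, from 44.1 to 1.46 CPM with HCC4006GR and from 16.9 to 0.450 CPM with HCC827GR for the second. CST1, a secreted inhibitor of proteases, had 0.873 and 0.769 CPM in the HCC4006P1 libraries, 0 and 0 CPM in those of HCC4006ER, 178 CPM in HCC4006P2, 2.32 CPM in HCC4006GR, 0.0577 CPM in HCC827P and 0 CPM in HCC827GR. It had 1 count in HCC827P and 0 in HCC827GR, so its p of 1.0e-04 (edgeR, unadjusted, adjusted 0.311) rests on both HCC4006 pairs. Among those higher, CPEB1, which controls translation through the tails of messenger RNA, went from 0.0707 to 3.75 CPM with HCC4006ER, from 0.147 to 7.48 CPM with HCC4006GR and from 0.115 to 2.51 CPM with HCC827GR, with changes of 2.15, 2.89 and 1.65.

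Other genes moved in opposite ways. In all, 493 genes (3.41%) were past 2-fold higher in 1 pair and past 2-fold lower in another, and the test of a difference between pairs, which called 489 of them, restates that choice. In 364 of the 493 the third pair was under 2-fold. In the other 129 all 3 pairs were past 2-fold and 1 went against the other 2, fewer than the 225 genes past 2-fold the same way in all 3. HCC4006GR was the one against the others in 65 of these, higher in 44 and lower in 21. HCC827GR was higher in 19 and lower in 17, and HCC4006ER higher in 8 and lower in 20.

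Among the genes that only HCC4006GR raised, SERPINA3, a protease inhibitor of the acute phase, had 14.4 and 2.10 CPM in the HCC4006P1 libraries, 1.62 and 1.39 CPM in those of HCC4006ER, 15.4 CPM in HCC4006P2, 446 CPM in HCC4006GR, 61.0 CPM in HCC827P and 10.2 CPM in HCC827GR, and XDH, which makes uric acid, had 17.5 and 7.69 CPM in the HCC4006P1 libraries, 0.202 and 0.205 CPM in those of HCC4006ER, 44.7 CPM in HCC4006P2, 258 CPM in HCC4006GR, 48.8 CPM in HCC827P and 2.51 CPM in HCC827GR. The SERPINA3 replicates of HCC4006P1 differed widely, and with changes of -1.96, 4.77 and -2.46 its fall was not called in HCC827GR (difference between pairs, edgeR quasi-likelihood, adjusted p = 0.0106). Others of the 44 genes, named after their values were seen, were the integrin genes ITGA6, ITGB6 and ITGA2 and the hemidesmosome collagen gene COL17A1, with changes of 1.02, 1.06, 1.26 and 1.33 in HCC4006GR and of -2.40, -5.19, -3.38 and -3.75 in HCC4006ER. In the other direction, HCC4006GR was lower for VAV3, an activator of RAC, from 0.259 to 4.43 CPM with HCC4006ER, from 6.76 to 0.596 CPM with HCC4006GR and from 0.173 to 24.8 CPM with HCC827GR. It was lower for SDC2, a heparan sulfate proteoglycan, from 0.154 to 40.6 CPM with HCC4006ER, from 67.7 to 17.3 CPM with HCC4006GR and from 0.923 to 13.2 CPM with HCC827GR. For PKDCC, a secreted kinase, it was lower with changes of 1.67, -2.09 and 1.75.

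HCC4006ER went against the others in KIT, a stem cell factor receptor that had 2.44 and 1.33 CPM in the HCC4006P1 libraries, 10.0 and 9.91 CPM in those of HCC4006ER, 125 CPM in HCC4006P2, 31.0 CPM in HCC4006GR, 1.90 CPM in HCC827P and 0.0643 CPM in HCC827GR. The changes of KIT were 1.90 in HCC4006ER, -1.98 in HCC4006GR and -1.45 in HCC827GR, and its parental level differed widely between the HCC4006 stocks. DEPTOR, an inhibitor of mTOR, changed by 1.48, -3.33 and -1.56 in HCC4006ER, HCC4006GR and HCC827GR, and PLEKHS1, of unclear function, by 1.91, -3.45 and -1.39. Lower in HCC4006ER and higher in the others were GDF15, TFPI2 and VNN1. GDF15, a stress hormone, went from 15.9 to 3.80 CPM with HCC4006ER, from 18.8 to 106 CPM with HCC4006GR and from 6.34 to 54.9 CPM with HCC827GR. TFPI2, an inhibitor of matrix proteases, went from 11.7 to 1.25 CPM with HCC4006ER, from 8.82 to 42.1 CPM with HCC4006GR and from 26.7 to 232 CPM with HCC827GR, and VNN1, which makes pantothenate, went from 4.43 to 0.280 CPM with HCC4006ER, from 0.588 to 16.5 CPM with HCC4006GR and from 38.9 to 286 CPM with HCC827GR. The 2 HCC4006P1 libraries had 6.85 and 1.59 CPM of VNN1.

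HCC827GR went against both HCC4006 pairs in FA2H, which hydroxylates the fatty acids of sphingolipids, from 8.37 to 0.102 CPM with HCC4006ER, from 15.6 to 1.39 CPM with HCC4006GR and from 14.3 to 120.2 CPM with HCC827GR. RAP1GAP, which turns off the GTPase RAP1, had 28.6 and 26.7 CPM in the HCC4006P1 libraries, 2.83 and 2.62 CPM in those of HCC4006ER, 82.6 CPM in HCC4006P2, 9.40 CPM in HCC4006GR, 1.67 CPM in HCC827P and 15.8 CPM in HCC827GR. BANK1, an adaptor known from B cells, changed by -1.56, -2.11 and 2.40 in the order of the pairs above. Lower in HCC827GR and higher in the others were STC2, a secreted glycoprotein, from 160.5 to 541 CPM with HCC4006ER, from 203 to 558 CPM with HCC4006GR and from 336 to 119 CPM with HCC827GR, COL15A1, a basement membrane collagen, with changes of 1.76, 1.41 and -1.90, and KALRN, an activator of RAC, with 2.72, 1.40 and -2.50. The plot of the opposite-way genes gives 17 genes.

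**Figure D2:**
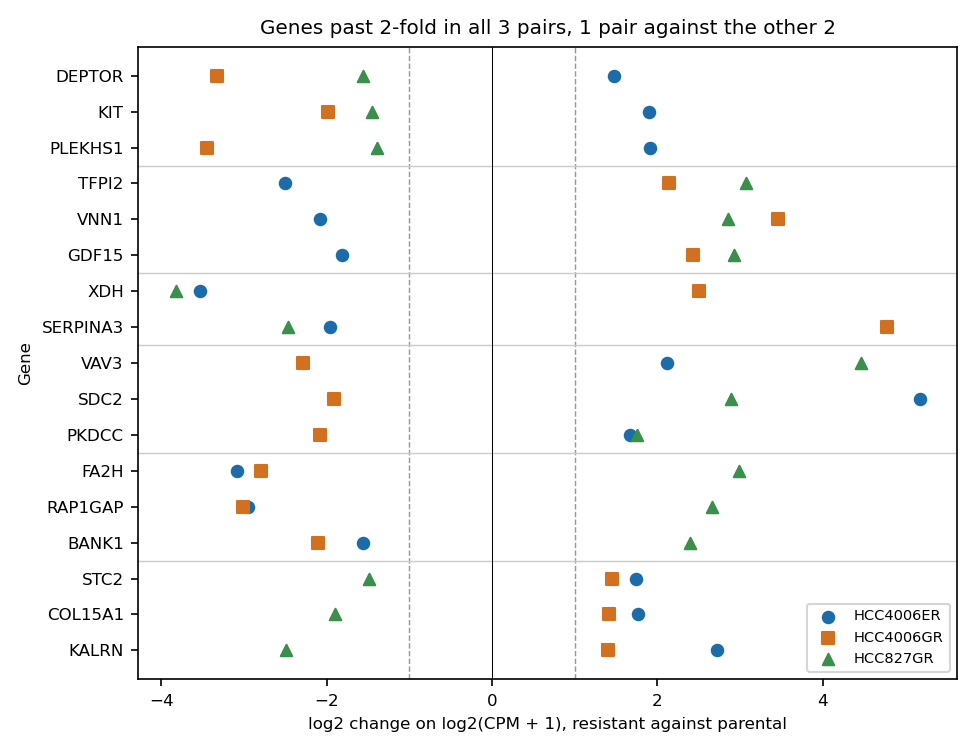
Change (x axis, log2) of 17 genes (y axis) in the 3 pairs, as blue circles for HCC4006ER, orange squares for HCC4006GR and green triangles for HCC827GR. Dashed lines mark changes of -1 and 1, and gray lines divide the genes by the pair and direction that goes against the other 2, each gene having 1 point on the far side from the others.

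Among the gene lists, interferon-stimulated genes had the most members moving in opposite ways, 10 of 20 against 3.41% of all genes. Their medians were -0.48 in HCC4006ER, 1.91 in HCC4006GR and -0.06 in HCC827GR. IFIT3, a protein induced by interferon that binds viral RNA, went from 56.0 to 24.8 CPM with HCC4006ER, from 52.7 to 458 CPM with HCC4006GR and from 22.6 to 23.0 CPM with HCC827GR, and MX1, an antiviral GTPase, went from 14.8 to 21.0 CPM with HCC4006ER, from 77.7 to 395 CPM with HCC4006GR and from 18.2 to 25.7 CPM with HCC827GR. Only ISG15, a ubiquitin-like protein, was called higher in all 3 pairs (1 of 20, against 1.85% of all genes), by 0.73, 1.72 and 0.84. Above 0 in all 3 pairs were 5 of the 20 (against 18.3%), or 4 with TMM scaling, and 0 were below. MX1 and ISG15 were among the 5. Of 17 genes of antigen presentation, 3 moved in opposite ways, TAPBP was called higher in all 3 (against 1.85%), and the medians were -0.07 in HCC4006ER, 0.91 in HCC4006GR and 0.09 in HCC827GR. Of 14 genes of the NRF2 and glutathione list, 4 moved in opposite ways and 0 the same way past 2-fold, with medians of -1.55 in HCC4006ER, -0.16 in HCC4006GR and 0.27 in HCC827GR. AKR1C2, an aldo-keto reductase, went from 0.346 to 546 CPM with HCC827GR and stayed at or below 1.65 CPM in the HCC4006 lines.

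The lists of sterol synthesis, drug efflux, hypoxia and YAP targets had 0 genes past 2-fold the same way in all 3 pairs. Beside the counts here stand 18.3% of all genes above 0 in all 3 pairs, 17.3% below and 2.12% called lower. Of 17 genes of sterol synthesis 8 were below 0 in all 3 and FDFT1 was called lower in all 3, with medians of -0.87 in HCC4006ER, -0.23 in HCC4006GR and 0.00 in HCC827GR, the last of which turned to -0.01 with TMM scaling. Of 8 drug efflux transporters 3 were above 0 in all 3, with medians of 0.68 in HCC4006ER, 0.10 in HCC4006GR and 0.34 in HCC827GR, and ABCB1 went from 1.27 to 32.1 CPM with HCC827GR. Of 16 genes of hypoxia and glycolysis 1 was above 0 in all 3, with medians of -0.61 in HCC4006ER, 0.29 in HCC4006GR and -0.02 in HCC827GR. Of 13 YAP and TEAD targets 2 were above 0 in all 3, and the medians were 0.05 in HCC4006ER, 0.55 in HCC4006GR and -0.16 in HCC827GR, the first of which turned to -0.05 with TMM scaling. The BCL2 family had medians of -0.07 in HCC4006ER, 0.69 in HCC4006GR and 0.35 in HCC827GR, and the TGF-beta pathway 0.39 in HCC4006ER, 0.61 in HCC4006GR and 0.41 in HCC827GR. Of the marker lists, 4 neuroendocrine, 2 blood cell and 2 endothelial genes were tested, with 0 past 2-fold the same way in all 3, and of 2 fibroblast genes PDGFRA was. In all, 406 of 415 listed genes were in the files and 356 were tested.

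**Figure D3:**
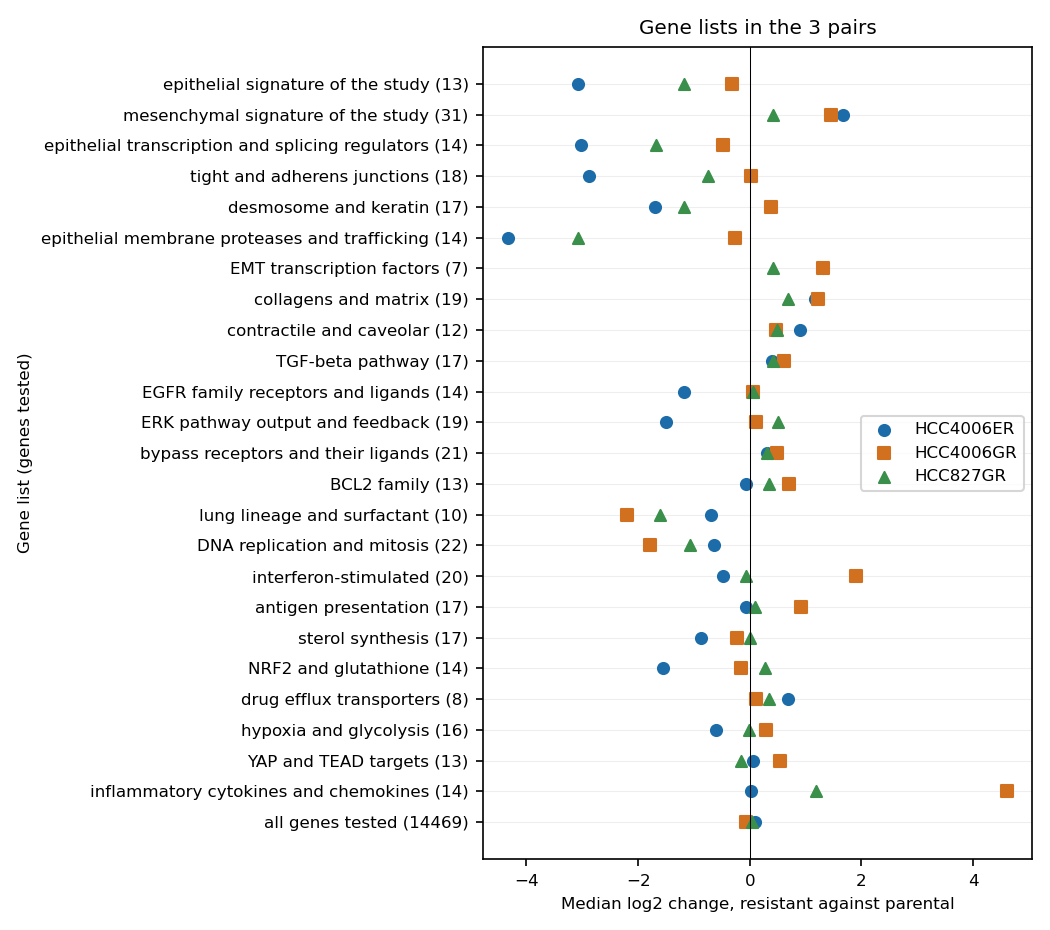
Median change (x axis, log2) of the tested genes of each list with at least 5 of them (y axis, number tested in brackets) in HCC4006ER (blue circles), HCC4006GR (orange squares) and HCC827GR (green triangles), with all 14469 genes in the lowest line. The lists of lung lineage, replication, epithelial regulators, epithelial proteases and trafficking, and the study's epithelial genes lie left of 0 in all 3 pairs, and those of interferon and cytokines lie furthest right in HCC4006GR.

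By position, the same-way genes were spread over the genome. On chromosomes with at least 1 such gene they made between 0.704% (chromosome 19) and 3.16% (chromosome 15) of the genes tested, against 1.56% over all. Opposite-way genes made 5.98% of those on chromosome 4 and 0.676% on chromosome 21. In 6 cases a same-way gene lay next to another with the same direction among the genes tested. These are COL6A1 with COL6A2, C1S with C1R, CD70 with C3, TSPAN13 with AGR2, ERP27 with ARHGDIB, and RASSF8 with RASSF8-AS1, which overlap on opposite strands. The strand setting of the counting is not stated, so reads of RASSF8 and RASSF8-AS1 may not be told apart. C1S and C1R, proteases that start the complement cascade, changed by 1.53, 3.48 and 3.99 and by 1.30, 2.09 and 3.57 in HCC4006ER, HCC4006GR and HCC827GR, and C3, the central complement protein, changed by 1.95, 5.65 and 4.12.

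The same-way genes were looked up in the 13 other libraries of the series, which did not enter their choice. For each of the 4 other parental lines, the change was the mean over its resistant lines. Of the 120 genes higher in all 3 lung pairs, 32 were past 2-fold higher with UWB1.289, an ovarian line with olaparib-resistant derivatives (26.7%, against 4.22% of all genes). With PancVB, a pancreatic line with derivatives that resist 5-fluorouracil, 24 were (20.0%, against 5.76%), and with IGROV-1, an ovarian line with a cisplatin-resistant derivative, 20 were (16.7%, against 4.37%). With HepG2, a liver line with sorafenib-resistant derivatives, 40 were (33.3%, against 23.4%). The HepG2 shares depend on scaling: with TMM, 35 were higher (29.2%, against 15.6% of all genes, 2262 in place of 3387) and 23 of the 105 lower (21.9%, against 20.7%, 2994 in place of 1921). The share was above that of all genes with each line, with the smallest ratio in HepG2, where many genes changed. The share past 2-fold the other way was above that of all genes with each line too, as given below.

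Of the 105 genes lower in the lung pairs, 16 were past 2-fold lower with PancVB (15.2%, against 6.67% of all genes), 8 with UWB1.289 (7.62%, against 1.85%), 7 with IGROV-1 (6.67%, against 6.0%) and 17 with HepG2 (16.2%, against 13.3%). Past 2-fold the other way, higher, were 51 of the 105 with HepG2 (against 23.4% of all genes, and 48 of 105 against 15.6% with TMM), 14 with IGROV-1 (against 4.37%), 4 with PancVB (against 5.76%) and 4 with UWB1.289 (against 4.22%). With HepG2 and IGROV-1 more of these genes thus went against their lung direction than the share of all genes gives. With PancVB this held only with TMM scaling, where 9 of the 105 were higher (against 7.21% of all genes). Of the 120 genes higher, past 2-fold lower were 23 with HepG2 (against 13.3%), 10 with IGROV-1 (against 6.0%), 11 with PancVB (against 6.67%) and 7 with UWB1.289 (against 1.85%). With each line this is more than the share of all genes gives, so these 120 genes were past 2-fold more often in both directions. CDC6 changed by 2.59 with HepG2, -0.17 with PancVB, 0.63 with UWB1.289 and 0.74 with IGROV-1, and FAM111B by 2.51, -0.07, 0.66 and -0.09. Neither was past 2-fold lower with any of the 4 lines. With IGROV-1 and HepG2 the share of the lower genes was close to that of all genes. No test was made, since most of these lines have 1 library each.

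L1CAM, an adhesion protein of neurons and of invasive tumours, was the only gene past 2-fold higher in all 3 lung pairs and with all 4 other parental lines. Its lung changes were 2.72 in HCC4006ER, 3.06 in HCC4006GR and 1.13 in HCC827GR, and it changed by 2.61 with HepG2, 4.52 with PancVB, 1.08 with UWB1.289 and 2.98 with IGROV-1. COL12A1, COL4A1, SEMA5A, SERPINB8 and ZEB2 were past 2-fold higher with 3 of the 4, and 0 of the genes lower were. ZEB2 changed by 3.23, 1.33, 1.27 and 0.00 in the same order. CCL2 changed by 4.49 with UWB1.289 and by 0.10 with HepG2, and COL6A2 by -1.06 with HepG2, against its direction in the lung pairs.

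**Figure D4:**
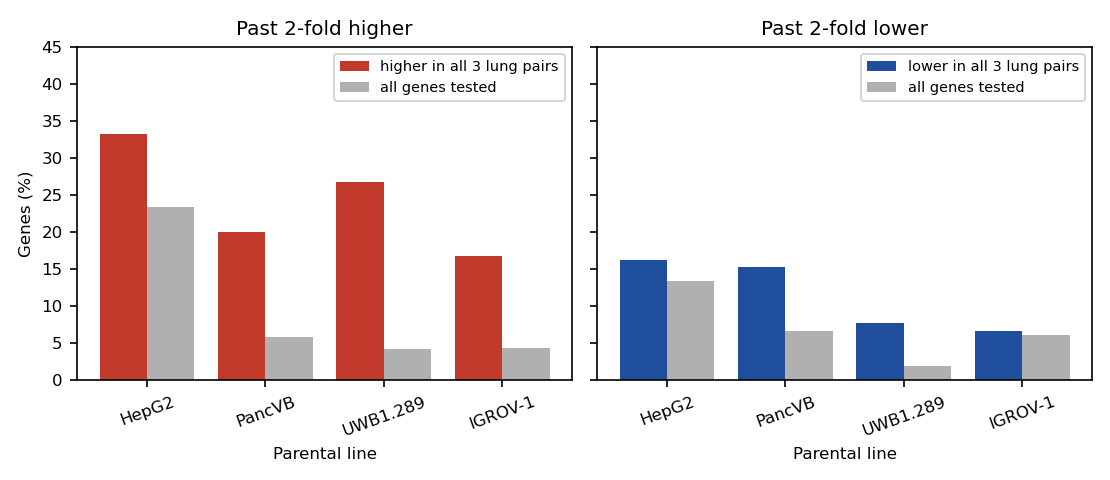
Share of genes (y axis, percent, from 0) past 2-fold higher (left) or lower (right) with each of 4 other parental lines. Red and blue bars are the 120 genes higher and the 105 lower in all 3 lung pairs, and gray bars all 14469 genes; the red bars exceed the gray ones most with UWB1.289 and PancVB.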

How the data were processed

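Poly(A) RNA of cultured cells was sequenced. The authors aligned reads to hg19 with TopHat and Bowtie, handled alignments with SAMtools and counted reads per Ensembl gene with HTSeq, in versions the labels do not give, and deposited raw counts. Per the labels all libraries came from a stranded kit, while the study's methods also name a kit for RNA 3′ ends without saying for which samples. The strand setting of the counting is not stated. Of the reads HTSeq tallied, between 5.31% and 12.5% fell in no gene, 2.41% to 2.78% were ambiguous and 20.0% to 31.9% not unique, and these stayed out of the totals. All libraries of the 6 lung lines were used, with totals between 13608332 and 19763806 counts, so that 3 counts make between 0.152 and 0.221 CPM.

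From the deposited counts, CPM of the total were computed, and log2 changes per pair with 1 CPM added. Genes were tested with edgeR 4.0.16 (limma 3.58.1, R 4.3.3) after filterByExpr and TMM scaling, with quasi-likelihood tests and Benjamini-Hochberg adjustment at 0.05. A fit over 6 summed line profiles had pair and resistance as terms. A fit over the 8 libraries had a mean per line, and tested each pair and the difference between pairs. DESeq2 1.42.0 was an alternative. Tables and figures used Python 3.11.15 with pandas 2.3.3, numpy 2.4.6 and matplotlib 3.10.9. The scripts were tested on simulated data. Gene positions are from GENCODE release 44 on GRCh37, and 8415 of 53515 genes had none and stayed out of tests, but not of totals. They hold 2.37% of the counts of HCC4006P1 replicate 2. Promoters are from RefSeq on GRCh38.p14.

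Named by rule were the 12 genes with the largest smallest change among those past 2-fold each way, the 3 of each opposite kind with the largest smallest change, and the 5 each way with the lowest p in the 3-pair test, all at 1 CPM or more on average, of which 1 gene of an opposite kind is not reported here and was not replaced. Other genes are members of the lists or were chosen after their values were seen. The comparison, its members and the 28 lists were chosen with earlier results of these data known. The libraries of other cancers entered only the lookup of shared genes. Alternatives were other scaling, other filters, DESeq2, no pair block, a replicate block, each pair or library left out, the HCC4006 pairs counted as 1, the stretch left out or not corrected, another pseudocount and a threshold of 1.5-fold. The tests per pair, and their alternatives, were added after the files were seen.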

Additional observations from a re-analysis of the deposited data

Results flagged for a closer look

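Each result here is a named gene whose changes in the 3 pairs were called different by the edgeR quasi-likelihood test over the 8 libraries (adjusted p under 0.05), and the value given is the span between the highest and the lowest of the 3 changes, in log2(CPM + 1). The test compares fitted changes without the added CPM. These differ most from the changes given here for genes near 0 counts, such as TMPRSS13, which had 0 counts in both HCC4006ER libraries, so that the size of its fitted fall there has no meaning. The spread in this test comes from the HCC4006P1 and HCC4006ER replicates, and for MBNL3, DEPTOR, TFPI2, SDC2 and COL15A1, on the stretch without counts in HCC4006P1 replicate 1, from HCC4006ER alone. What makes the pairs differ was not tested, and drug, starting line, earlier publication credited and derivation cannot be told apart.

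Of the genes higher in all 3 pairs, the span was 4.25 for COL6A2, 2.63 for DAB2, 2.60 for IL32, 2.26 for PTGFR, 2.23 for CDH6, 2.02 for ARHGAP31, 1.16 for RFTN1, 1.02 for PDE10A and 0.61 for RRAD. Of the genes lower in all 3, it was 4.04 for CEACAM6, 3.27 for FGFBP1, 3.15 for MBNL3, 2.95 for SCNN1A, 2.87 for AGR2, 2.14 for EPN3, 1.42 for ARHGDIB, 1.15 for KRT15 and 0.51 for TMPRSS13. That the change was of 1 sign in these 18 genes follows from their choice as genes past 2-fold the same way in all 3 pairs.

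The 17 genes named for opposite directions were chosen for changes of opposite sign in these libraries, so that the test restates the choice. Where HCC4006ER went against the others, the span was 5.57 for TFPI2, 5.55 for VNN1, 5.36 for PLEKHS1, 4.81 for DEPTOR, 4.74 for GDF15 and 3.88 for KIT. Where HCC4006GR did, it was 7.24 for SERPINA3, 7.08 for SDC2, 6.74 for VAV3, 6.33 for XDH and 3.83 for PKDCC. Where HCC827GR did, it was 6.07 for FA2H, 5.66 for RAP1GAP, 5.22 for KALRN, 4.50 for BANK1, 3.67 for COL15A1 and 3.23 for STC2. The widest spans were thus in genes that HCC4006GR moved against the others.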

How the results depend on the processing

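The 2-fold counts used fixed thresholds. With 0.1 CPM added in place of 1, 204 genes were higher in all 3 pairs, 166 lower and 865 in opposite ways, and at 1.5-fold 310, 367 and 1473. Under other scaling, filters, treatment of the stretch and with a library left out they stayed within 1.5 times. In the other parental lines, with 0.1 CPM added, 13 of the 105 lower genes were past 2-fold lower with UWB1.289 (12.4%, against 3.95% of all genes), and with IGROV-1 31 of the 120 were higher (25.8%, against 6.66%) and 15 of the 105 lower (14.3%, against 9.17%, further from the share of all genes than with 1 CPM added). These counts follow from the pseudocount, since genes of low level then pass.

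The 3-pair edgeR test called 0 genes. Without a filter on low counts it called 13 higher and 7 lower, with the HCC4006 pairs counted as 1 it called 1 higher, and DESeq2 called 314 higher and 377 lower. The cause was not tested. The tests over libraries depend on which replicates are in the fit. With a library left out, the genes whose changes differ between pairs ranged from 2669 to 9968, those called higher in all 3 pairs from 115 to 589 and those called lower from 107 to 833. With an HCC4006ER library left out, the stretch genes had no residual degrees of freedom and could not be fitted. Without HCC4006P1 replicate 2 they had no level for HCC4006P1. The ends of these ranges therefore rest on different sets of genes. With the genes of the stretch left out, 169 genes were called higher and 199 lower. The fit with a replicate block also left out the stretch, and called 352 higher and 490 lower. It called 6946 genes whose changes differ between pairs, against 3998 with the stretch left out and no such block. HCC4006P1 and HCC4006ER share only replicate numbers, and their same-numbered deviations correlated at 0.403 across 12298 genes.

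For 31 named genes with a 3-pair change, all 431 values under alternatives kept the direction. Of these values 37 were past the threshold, 30 with DESeq2. The kept direction is no test of stability, since the alternatives reuse the libraries in which these genes were chosen. Most were chosen for changes past 2-fold the same way in all 3 pairs, and the rest for the lowest p in the 3-pair test. With TMM scaling, 0 of the 51 pair changes of the genes named for opposite directions turned. This was fixed beforehand, since they were chosen past 2-fold and the scaling shifts all genes of a pair nearly alike. Depth limits the genes near 0: below 3 counts, a level cannot be told from 0. Single libraries stand for 4 of the 6 lines.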
